A study of Mus musculus with 64 samples.

Results

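Nr4a1, Nr4a2 and Nr4a3 are the members of the Nr4a subgroup of orphan nuclear receptors, and they were taken by gene name from the deposited isoform tables of 64 RNA-seq libraries. This gave 3 of 46785 genes and 11 of 112714 transcripts. Nr4a1 had 1 transcript, Nr4a2 had 6 and Nr4a3 had 4. The level of a gene was the sum of the FPKM of its transcripts in a library, where FPKM counts fragments per kilobase of a transcript, relative to all fragments mapped in the library.

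The study asked how psychotropic drugs change transcript levels in the nucleus accumbens (NAc) and the prefrontal cortex (PFCx) of adult male C57BL/6N mice 2 h after 1 intraperitoneal injection. The drugs were the antipsychotics haloperidol (1 mg/kg) and risperidone (0.5 mg/kg), the psychostimulant methamphetamine (2 mg/kg), the antidepressants mianserin (20 mg/kg) and venlafaxine (16 mg/kg) and the dissociative anaesthetic ketamine (20 mg/kg). Each drug had 4 libraries in each tissue and saline had 8, which the labels split into sets I and II of 4 each. All mice were given saline as the vehicle, to which a drop of HCl was added for haloperidol and risperidone but, as far as the methods state, not for the saline mice. The PFCx pieces were taken from the medial wall, with prelimbic, cingulate and infralimbic cortex and some dorsal peduncular cortex, and the RNA was depleted of ribosomal RNA.

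Nr4a receptors bind DNA without a known natural ligand of the classical kind, so their activity depends largely on how much of the protein is made. All members are immediate early genes, switched on in neurons within minutes to hours by calcium and cyclic AMP through the transcription factor CREB, without new protein synthesis. In the striatum Nr4a1 is known as a gene under dopamine control that responds to antipsychotics, Nr4a2 is needed for the development and upkeep of midbrain dopamine neurons, and Nr4a3 has been linked with the others to memory formation.

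The promoters of the members are shown because CREB binds the cAMP response element (CRE). The core searched was TGACG, or CGTCA on the other strand, in the 250 bases before the RefSeq start of each gene on GRCm38.p6. It is in capitals below, and the sequences are written in the direction of transcription. The Nr4a1 promoter is chr15:101266596-101266845 on the plus strand and the Nr4a2 promoter is chr2:57124004-57124253 on the minus strand. For Nr4a3, the 30 bases chr4:48045080-48045109 on the plus strand are given, since 2 transcripts of the tables start within its 250-base window.
Nr4a1: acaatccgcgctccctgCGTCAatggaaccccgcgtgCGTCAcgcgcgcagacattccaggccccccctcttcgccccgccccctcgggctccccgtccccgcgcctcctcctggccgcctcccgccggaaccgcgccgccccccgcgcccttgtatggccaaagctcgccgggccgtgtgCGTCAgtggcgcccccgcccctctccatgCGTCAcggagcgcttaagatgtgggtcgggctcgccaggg
Nr4a2: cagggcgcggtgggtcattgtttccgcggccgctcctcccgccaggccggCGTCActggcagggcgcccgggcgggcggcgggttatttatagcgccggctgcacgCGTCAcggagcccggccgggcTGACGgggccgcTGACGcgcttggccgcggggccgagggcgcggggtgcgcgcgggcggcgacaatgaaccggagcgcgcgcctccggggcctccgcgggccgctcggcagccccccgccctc
Nr4a3: agcgtcccatgtCGTCAcatTGACGtctcg

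Each member had 4 CRE cores in its 250 bases. Those of Nr4a1 began 233, 213, 69 and 40 bases before the start, those of Nr4a2 200, 144, 123 and 111 bases, and those of Nr4a3 231, 213, 205 and 147 bases, of which the stretch above shows 2. The Nr4a3 distances are from the RefSeq start at base 48045305. Since Nr4a3-201 starts before that, at base 48045153, the core at 147 bases lies inside this transcript. Of 32851 such 250-base windows from 27025 genes, 17.8% held at least 1 core and 0.137% held 4 or more. The windows of the members were rich in G and C, with 74.4% for Nr4a1, 80.0% for Nr4a2 and 63.6% for Nr4a3. None held the full CRE TGACGTCA, found in 1.55% of the windows, the NBRE AAAGGTCA to which the Nr4a proteins themselves bind, found in 1.34%, or a CArG box of the serum response factor, found in 1.47%. A match describes these letters and is not evidence of binding, and the shared core overlaps the full element.

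On mm10, Nr4a1 lies at chr15:101266846-101274792 on the plus strand and its transcript Nr4a1-201 has 7 exons. Nr4a2 lies at chr2:57106830-57124003 on the minus strand, and Nr4a3 at chr4:48045153-48086447 on the plus strand. The Nr4a1 promoter ends just before the first base of Nr4a1-201. The Nr4a2 promoter lies before Nr4a2-203 and Nr4a2-206, and the other 4 Nr4a2 transcripts start further inside the gene.

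The libraries fell into 2 sample sets that differ beyond the drugs. In the NAc, 85287 to 87827 transcripts were above 0 in 16 libraries (methamphetamine, haloperidol, risperidone and saline set I) and 107099 to 110556 in the other 16 (ketamine, mianserin, venlafaxine and saline set II). The first principal component separated the same sets in both tissues, with 40.7% of the variance among NAc libraries and 46.7% among PFCx libraries. For this reason each drug is given against all 8 saline libraries and also against the 4 of its own set, in a model that keeps all 32 libraries of the tissue. Between the saline sets, 17.1% of genes differed in the NAc, Nr4a1 among them (0.34 higher in set I on the log2 scale, adjusted p = 0.0147), and 9.25% differed in the PFCx, without any of the members. Nr4a2 in the NAc was 0.37 higher in set I, which did not pass the same limma test (adjusted p = 0.0934). The depth was 1.52 to 3.26 gigabases of aligned sequence per library with a median of 2.39. Striatal neuron markers summed to 533 to 725 FPKM in NAc saline libraries against 22.2 to 78.8 in the PFCx, and cortical projection neuron markers to 25.4 to 71.9 against 170 to 222, so the tissues matched their labels and cortical transcripts were present in the NAc pieces in varying amounts.

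In saline-treated mice, Nr4a1 and Nr4a3 were higher in the PFCx and Nr4a2 was higher in the NAc. Nr4a1 ranged from 2.62 to 4.52 FPKM in the NAc, with a median of 3.27, and from 3.79 to 5.75 in the PFCx, with a median of 5.18. Nr4a2 ranged from 2.54 to 5.61 in the NAc (median 3.88) and from 1.19 to 2.33 in the PFCx (median 1.81). Nr4a3 ranged from 1.63 to 2.67 in the NAc (median 1.95) and from 2.93 to 4.32 in the PFCx (median 3.60). The tissues overlapped for Nr4a1 and lay apart for Nr4a2 and Nr4a3. The mean of Nr4a1 was 3.52 ± 0.729 FPKM (SD, n = 8) in the NAc, and the PFCx had 1.39 times as much, 4.89 ± 0.712. Nr4a2 averaged 3.89 ± 0.993 FPKM in the NAc, 2.22 times the 1.75 ± 0.371 of the PFCx. Nr4a3 averaged 3.61 ± 0.543 FPKM in the PFCx, 1.77 times the 2.04 ± 0.385 of the NAc. Tested with limma on log2(FPKM + 1), the NAc minus PFCx differences were -0.39 for Nr4a1 (adjusted p = 0.000204), 0.81 for Nr4a2 (2.39e-08) and -0.60 for Nr4a3 (2.29e-08). Such differences were common between these tissues, since 45.7% of all genes passed and the median of all genes was -0.10. That of Nr4a1 was -0.14 when saline set II was left out of the fit (adjusted p = 0.314).

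**Figure D1:**
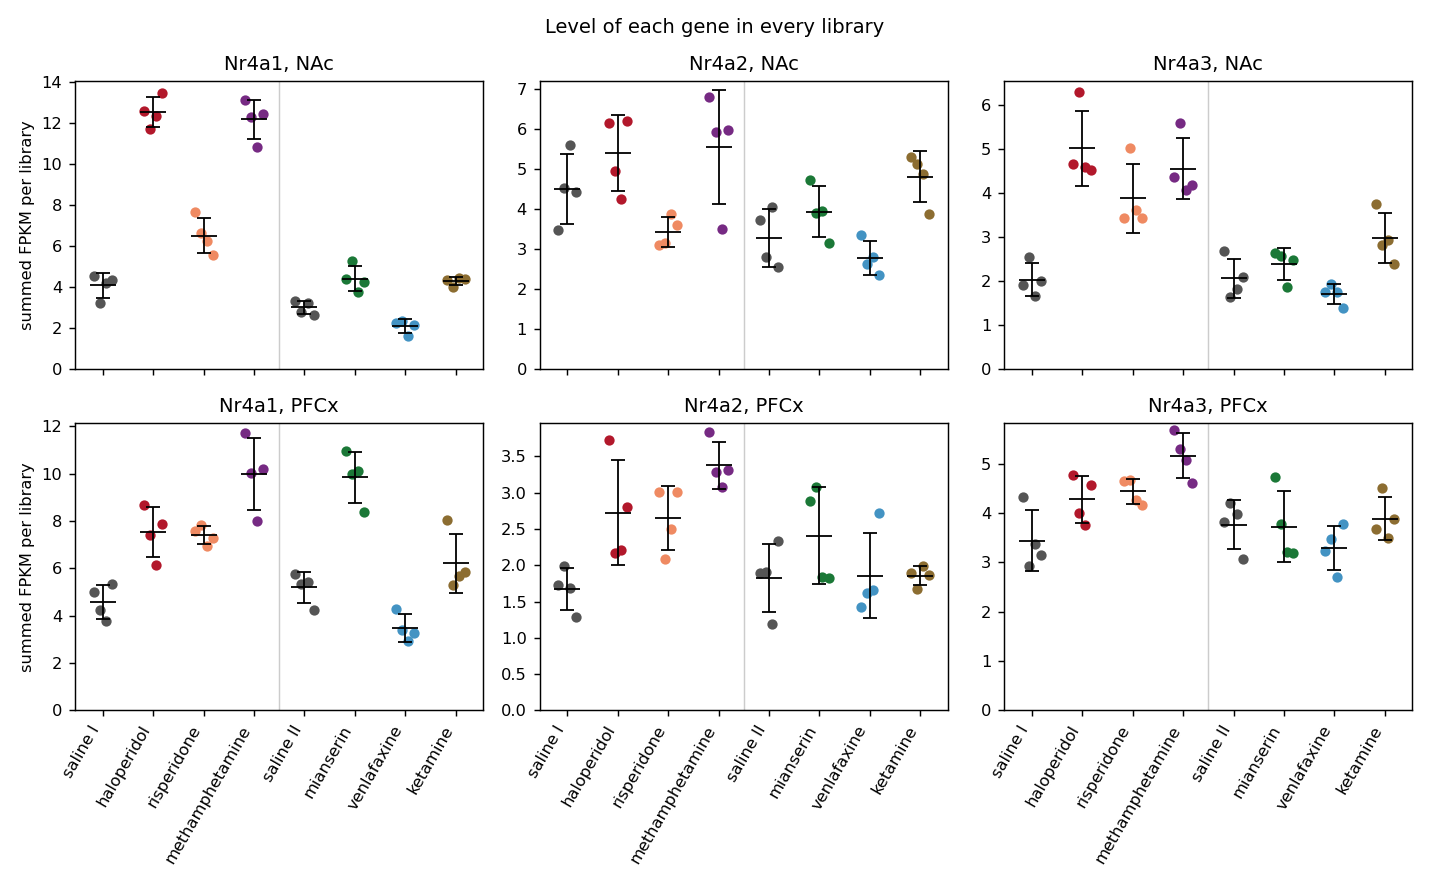
Summed FPKM of Nr4a1, Nr4a2 and Nr4a3 in every library of the NAc (upper row) and the PFCx (lower row). Each point is 1 library, the bars are the mean and SD of 4 libraries, and the grey line separates the sample sets. Nr4a1 in the NAc reaches 10.9 to 13.5 FPKM after haloperidol and methamphetamine, above every saline library.

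Nr4a1, which antipsychotics are known to induce in the striatum, rose in the NAc after haloperidol, methamphetamine and risperidone. The 4 haloperidol libraries had 11.7, 12.3, 12.6 and 13.5 FPKM and the 4 methamphetamine libraries 10.9, 12.3, 12.4 and 13.2. The risperidone libraries had 5.55, 6.21, 6.60 and 7.65. All 12 lay above the highest saline library, and the risperidone libraries lay below every haloperidol and methamphetamine library. Haloperidol brought the mean to 12.5 ± 0.730 FPKM (SD, n = 4), 3.55 times that of saline, a difference of 1.59 on the log2 scale (SE 0.10, adjusted p = 1.15e-11). Methamphetamine brought it to 12.2 ± 0.964, 3.46 times saline (1.56, adjusted p = 6.42e-11). Risperidone brought it to 6.50 ± 0.880, 1.85 times saline (0.74, adjusted p = 0.000102). Of all genes tested in the NAc, 0.957% were called after haloperidol, 0.260% after methamphetamine and 0.936% after risperidone, where called means an adjusted p under 0.05 in either direction. Against the own saline set, which is set I for these drugs, the differences were 1.42, 1.39 and 0.57, with adjusted p of 2.71e-10, 1.09e-09 and 0.00413 and with 0.284%, 0.113% and 0.260% of genes called. Since the drugs share their saline libraries, these comparisons are not independent of each other.

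The NAc levels of Nr4a1 after the drugs of sample set II were close to or below those of saline. Mianserin libraries had 3.75, 4.25, 4.36 and 5.24 FPKM, ketamine libraries 3.97, 4.34, 4.37 and 4.40, and venlafaxine libraries 1.59, 2.13, 2.24 and 2.34. Mianserin and ketamine overlapped saline as a whole and lay above every library of saline set II (2.62, 2.78, 3.21 and 3.32), while all venlafaxine libraries lay below every saline library. The mianserin difference was 0.26 against all saline (adjusted p = 0.153) and 0.44 against the own saline set, set II (0.0420). The ketamine difference was 0.24 (0.196) and 0.41 (0.0278), in the same order. Against the same own set, markers of other cells were also higher in the NAc after ketamine, namely 1 of 6 of cortical projection neurons (Slc17a7, 0.95), 1 of 4 of astrocytes (Aqp4, 0.35) and 2 of 4 of oligodendrocytes. The median differences of these lists were 0.47, 0.27 and 0.26, and their part in the Nr4a1 result was not tested. For these drugs, 1.15% and 1.5% of genes were called against all saline, and 0.297% and 1.14% against the own set. After venlafaxine the mean was 2.07 ± 0.334 FPKM, 0.589 times that of saline, and the difference of -0.55 passed the test (adjusted p = 0.0195, with 0.0888% of genes called). Against the own set it was -0.38 and did not pass (adjusted p = 0.777, with 0% of genes called). It also did not pass without saline set I replicate 3 (-0.52, adjusted p = 0.0527), without venlafaxine replicate 3 (-0.47, 0.204) or without venlafaxine replicate 4 (-0.56, 0.0533).

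The order of Nr4a1 in the NAc, from the highest mean, was haloperidol, methamphetamine, risperidone, mianserin, ketamine, saline and venlafaxine. Haloperidol and methamphetamine did not differ beyond their spread (0.04, adjusted p = 0.998, with 0.00342% of genes called). Methamphetamine was 0.82 above risperidone (adjusted p = 0.000594, with 0.102% of genes called in that comparison), and haloperidol was 0.86 above risperidone (0.000601, with 0.0376% called), all within 1 sample set. Risperidone was 0.47 above mianserin (adjusted p = 0.00720), a comparison across sample sets in which 17.7% of genes were called. Mianserin, ketamine and saline, with all 8 saline libraries, did not differ from each other beyond their spread, and saline was above venlafaxine as given above. Against saline set II alone, mianserin (0.44) and ketamine (0.41) were called higher and venlafaxine (-0.38) was not called.

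In the PFCx, Nr4a1 rose after methamphetamine and mianserin, and with smaller means after haloperidol and risperidone. Methamphetamine libraries had 7.99, 10.01, 10.2 and 11.7 FPKM, and mianserin libraries 8.37, 9.97, 10.1 and 10.9. Haloperidol libraries had 6.15, 7.39, 7.87 and 8.67, and risperidone libraries 6.95, 7.28, 7.56 and 7.83. The libraries of these 4 drugs all lay above the highest saline library, at 5.75. Methamphetamine gave a mean of 9.97 ± 1.53 FPKM (SD, n = 4), 2.04 times that of saline (0.90, SE 0.11, adjusted p = 1.98e-05), and mianserin 9.85 ± 1.07, 2.01 times (0.88, adjusted p = 1.36e-05). Within their own sample sets these differences were 0.97 (6.78e-05) and 0.81 (0.000413). Haloperidol gave 7.52 ± 1.06 FPKM, 1.54 times that of saline (0.53, adjusted p = 0.0341), and risperidone 7.41 ± 0.374, 1.51 times (0.52, adjusted p = 0.0161). Against the own saline set, risperidone kept its call (0.60, adjusted p = 0.0345) and haloperidol did not (0.61, 0.0961). With saline set II left out of the fit, which leaves the difference as it is and changes the estimated variance, risperidone lost it (adjusted p = 0.0518). The share of genes called against all saline was 0.353% for methamphetamine, 0.681% for mianserin, 0.163% for haloperidol and 0.513% for risperidone, and against the own set 0.160%, 2.02%, 0.0217% and 0.163%.

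The weaker PFCx calls lay near the threshold and were lost in some refits with 1 library left out. Over all such refits, the differences stayed between 0.47 and 0.61 for haloperidol and between 0.48 and 0.55 for risperidone. The haloperidol call was lost without haloperidol replicate 1 (0.47, adjusted p = 0.175), 2 (0.54, 0.115) or 4 (0.51, 0.117), and without saline set II replicate 4 (0.51, 0.0680). The risperidone call was lost without risperidone replicate 1 (0.51, 0.0665), 2 (0.50, 0.0806) or 4 (0.53, 0.0513). Ketamine libraries had 5.29, 5.67, 5.86 and 8.05 FPKM, of which 2 lay above every saline library, and did not pass the test (0.29, adjusted p = 0.520, with 0.0163% of genes called), nor against the own saline set (0.21, 0.487, with 1.53% called). Venlafaxine libraries had 2.91, 3.25, 3.41 and 4.30, of which 3 lay below every saline library, and did not pass either (-0.40, adjusted p = 0.326, with 0.00543% called), nor against the own set (-0.47, 0.0633, with 0.744% called). Neighbours in the PFCx order of methamphetamine, mianserin, haloperidol, risperidone, ketamine, saline and venlafaxine did not differ beyond their spread.

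Nr4a3, the member with the longest gene, rose in the NAc after haloperidol, methamphetamine and risperidone. Haloperidol libraries had 4.51, 4.58, 4.65 and 6.30 FPKM, methamphetamine libraries 4.07, 4.18, 4.37 and 5.58, and risperidone libraries 3.42, 3.42, 3.62 and 5.03. All 12 lay above the highest saline library, at 2.67, and the drugs overlapped each other. The means were 5.01 ± 0.859 FPKM (SD, n = 4) after haloperidol, 4.55 ± 0.698 after methamphetamine and 3.87 ± 0.775 after risperidone, which were 2.46, 2.23 and 1.90 times that of saline. The log2 differences were 0.98 (SE 0.11, adjusted p = 1.47e-06), 0.87 (2.68e-05) and 0.68 (0.000708), and against the own saline set 0.99 (3.59e-05), 0.88 (0.000603) and 0.68 (0.00984).

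The other drugs did not move Nr4a3 past the threshold in the NAc. Ketamine libraries had 2.38, 2.82, 2.93 and 3.74 FPKM, of which 3 lay above every saline library, and the difference of 0.39 missed it (adjusted p = 0.0627, and 0.191 against the own set). It passed without saline set II replicate 1 (0.43, adjusted p = 0.0346) and with the replicate number as a block (0.39, 0.0337). Mianserin libraries ranged from 1.86 to 2.63 FPKM (0.16, adjusted p = 0.449) and venlafaxine libraries from 1.39 to 1.93 (-0.16, 0.431). No neighbours in the order of haloperidol, methamphetamine, risperidone, ketamine, mianserin, saline and venlafaxine differed beyond their spread, the closest to the threshold being risperidone against ketamine (0.29, adjusted p = 0.0923).

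In the PFCx, only methamphetamine moved Nr4a3 past the threshold, and narrowly. Its libraries had 4.6, 5.07, 5.31 and 5.68 FPKM, all above the highest saline library at 4.32. The mean of 5.17 ± 0.451 FPKM (SD, n = 4) was 1.43 times that of saline (0.43, SE 0.09, adjusted p = 0.0255). Against the own saline set the difference was 0.48 and did not pass (adjusted p = 0.0515). It also did not pass without methamphetamine replicate 1 (0.39, adjusted p = 0.154), 2 (0.41, 0.112) or 3 (0.43, 0.0720), or without saline set II replicate 4 (0.40, 0.0541). Risperidone libraries ranged from 4.17 to 4.67 FPKM (0.25, adjusted p = 0.192) and haloperidol libraries from 3.77 to 4.77 (0.20, 0.314). The remaining drugs differed from saline by at most 0.10 in size, and all groups overlapped their neighbours in the order.

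Nr4a2, the receptor that midbrain dopamine neurons depend on, was not called in the NAc for any of the 6 drugs against either control. Haloperidol libraries had 4.26, 4.95, 6.16 and 6.19 FPKM, methamphetamine libraries 3.5, 5.92, 5.97 and 6.8, and ketamine libraries 3.88, 4.88, 5.14 and 5.31. Saline reached 5.61, so each of these groups overlapped it. The log2 differences were 0.40 for haloperidol (SE 0.14, adjusted p = 0.157), 0.42 for methamphetamine (0.259) and 0.27 for ketamine (0.304). Mianserin ranged from 3.15 to 4.73 FPKM, risperidone from 3.09 to 3.87 and venlafaxine from 2.34 to 3.35, with differences of 0.03, -0.12 and -0.35 and adjusted p of 0.936, 0.677 and 0.177. Against the own saline set the largest difference was that of ketamine, 0.45 (adjusted p = 0.195), with 0.22 for haloperidol (0.851), 0.24 for methamphetamine (0.787), 0.21 for mianserin (0.842), -0.30 for risperidone (0.665) and -0.17 for venlafaxine (1). Over the 6 drugs together, Nr4a2 did vary in the NAc (limma F test, adjusted p = 0.00311, and 0.0282 with own saline sets, where 29.9% and 1.98% of genes passed).

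In the PFCx, Nr4a2 rose after methamphetamine. Its libraries had 3.07, 3.28, 3.32 and 3.83 FPKM, all above the highest saline library at 2.33. The mean was 3.38 ± 0.320 FPKM (SD, n = 4), 1.93 times that of saline (0.68, SE 0.13, adjusted p = 0.00677), and 0.71 above the own saline set (0.0368). It missed the threshold without methamphetamine replicate 1 (0.63, adjusted p = 0.0533). Haloperidol libraries had 2.17, 2.21, 2.80 and 3.72 FPKM, and risperidone libraries 2.09, 2.50, 3.00 and 3.01. These overlapped saline, and their differences of 0.43 and 0.41 did not pass (adjusted p = 0.138 and 0.126). Mianserin (0.30, adjusted p = 0.424), ketamine (0.07, 0.919) and venlafaxine (0.04, 0.970) did not pass either, and neighbours in the order overlapped.

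Counted over the 3 members and 6 drugs, 6 of 18 comparisons in the NAc were called higher and 1 lower, and 6 of 18 in the PFCx were called higher and 0 lower. Of all genes tested in the NAc, 0.0888% (venlafaxine) to 1.5% (ketamine) were called per drug, in either direction. For the PFCx this share was 0.00543% (venlafaxine) to 0.681% (mianserin). Against the own saline sets the NAc had 8 higher and 0 lower calls, and the PFCx 4 and 0. The share of all genes called per drug was then 0% (venlafaxine) to 1.14% (ketamine) in the NAc. It was 0.0217% (haloperidol) to 2.02% (mianserin) in the PFCx. The drug effect passed the F test for each member in each tissue against all saline. In the NAc the adjusted p was 7.63e-14 for Nr4a1 and 1.68e-07 for Nr4a3, and with own saline sets 1.89e-11 and 2.97e-05. In the PFCx, where 3.37% of genes passed, it was 2.85e-07 for Nr4a1, 0.00960 for Nr4a2 and 0.0186 for Nr4a3. With own saline sets, 1.45% of genes passed there, Nr4a1 among them (7.52e-07) but not Nr4a2 (0.0799) or Nr4a3 (0.129).

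**Figure D2:**
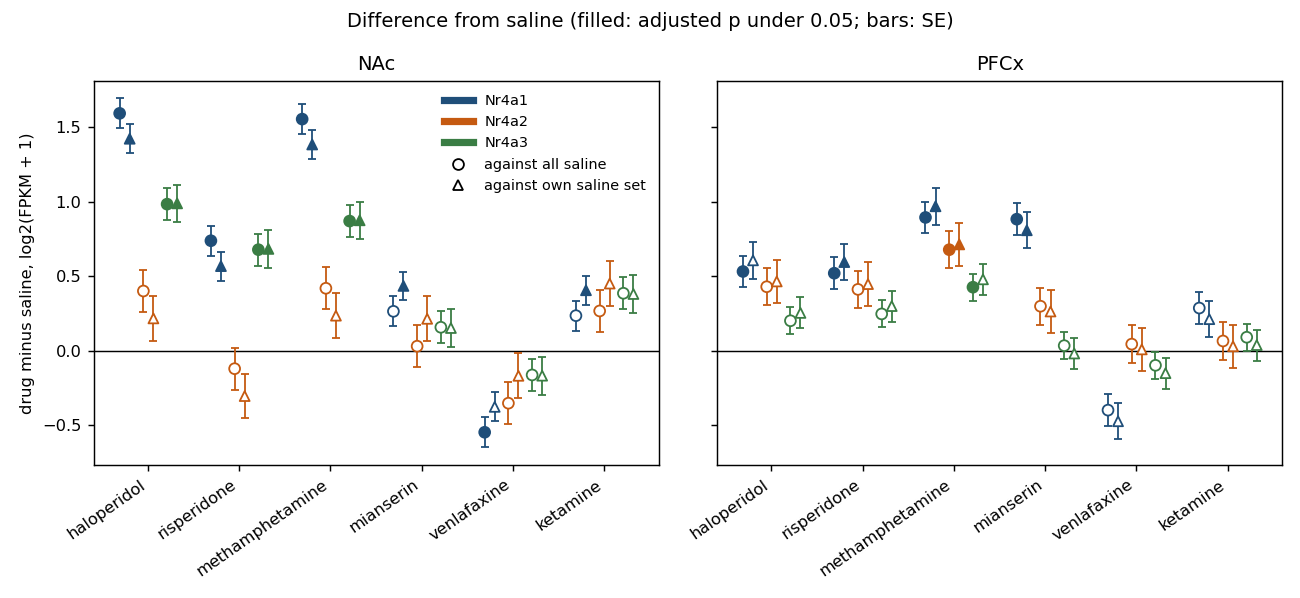
Difference of each drug from saline on the log2(FPKM + 1) scale for Nr4a1 (blue), Nr4a2 (orange) and Nr4a3 (green), in the NAc (left) and the PFCx (right). Circles are against all 8 saline libraries and triangles against the 4 of the own sample set, bars are SE, and filled symbols have an adjusted p under 0.05. For Nr4a1, haloperidol gives 1.59 in the NAc but 0.53 in the PFCx.

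The drug effects were compared between the tissues in a model of all 14 groups. The Nr4a1 response to haloperidol was 1.06 larger in the NAc than in the PFCx on the log2 scale (SE 0.15, adjusted p = 2.65e-05), and the Nr4a3 response was 0.78 larger (SE 0.14, adjusted p = 0.00534). Only 0.0405% of all genes were called in this comparison. With own saline sets the differences were 0.82 (adjusted p = 0.0419) for Nr4a1, with 0.00810% of genes called, and 0.74 (0.132) for Nr4a3. The other 16 of 18 differences did not pass, and 0% of genes were called for risperidone and methamphetamine, 0.119% for mianserin, 0.0513% for venlafaxine and 0.313% for ketamine. Among them were methamphetamine for Nr4a1, 0.66 larger in the NAc (adjusted p = 0.204), and mianserin for Nr4a1, -0.62 (adjusted p = 0.0576), where the PFCx response was the larger. Over all drugs, the F test of the difference passed for Nr4a1 (5.37e-08) and Nr4a3 (0.00092) and not for Nr4a2 (0.0983), with 12.9% of genes called. With own saline sets it passed for Nr4a1 (0.000423), with 0.759% called, and not for Nr4a3 (0.108) or Nr4a2 (0.201). Whether the tissues came from the same mice is not stated, so the model had no term for the animal.

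The members were also set against each other within each library, as the log2 ratio of their levels after adding 0.1 FPKM. Drug and saline libraries were compared by exact permutation (two-sided, every split of 4 and 8 libraries), with adjustment over 36 ratios. The ratio of Nr4a1 to Nr4a2 in the NAc was -0.12 in saline and moved up by 1.34 after haloperidol, 1.28 after methamphetamine and 1.03 after risperidone. Each of these had an adjusted p of 0.0145, from the smallest p the splits can give, 0.00202. The ratio of Nr4a2 to Nr4a3 in the NAc fell by 1.04 after risperidone (adjusted p = 0.0145), from 0.88 to -0.16. In the PFCx, the ratio of Nr4a1 to Nr4a3 rose by 0.96 after mianserin (0.0145) and by 0.50 after methamphetamine (0.0242), from 0.43 in saline. These 6 were called and the other 30 were not, 14 of all 36 being under 0.05 before adjustment. Against the 4 own saline libraries the smallest exact p is 0.0286 and 0 were called, the lowest adjusted p being 0.147. The Nr4a1 to Nr4a2 ratio then moved by 1.35, 1.29 and 1.04 after haloperidol, methamphetamine and risperidone.

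All 11 transcripts were listed with a successful estimate. Transcripts of 1 gene share most of their reads, so the estimate of each depends on the others. Nr4a2-202, Nr4a2-201 and Nr4a2-203 are protein coding, and on average over the NAc libraries they held 33.7%, 20.5% and 17.0% of the FPKM of the gene. The processed transcript Nr4a2-205 held 22%, the processed transcript Nr4a2-204 4.55% and Nr4a2-206, a target of nonsense-mediated decay, 2.31%. In the PFCx Nr4a2-202 again held the largest share (30.3%), followed by Nr4a2-203 (21.4%) and Nr4a2-205 (18.8%). For Nr4a3, the protein coding Nr4a3-201 and Nr4a3-203 held 45.0% and 39.2% of the NAc level and 39.9% and 49.0% of the PFCx level. The processed transcript Nr4a3-204 held 14.6% and 10.6%. Single libraries strayed far from these means, and the share of Nr4a3-201 ran from 0.0253% to 77.7% among the 8 NAc saline libraries.

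Nr4a1 has a single transcript in the deposited data, so its values are those of the gene above. GENCODE lists 4 transcripts of Nr4a1, and a change among them could not be seen here. None of the Nr4a2 or Nr4a3 transcripts was called against saline for any drug. In the NAc, 48 comparisons of 8 transcripts gave 0 calls with limma, 9 being under 0.05 before adjustment. The lowest adjusted p was 0.0670, for Nr4a3-201 after haloperidol, a difference of 1.10. Of all transcripts, 0.210% were called in the NAc after haloperidol, 0.185% after risperidone, 0.0570% after methamphetamine, 0.387% after mianserin, 0.00835% after venlafaxine and 0.141% after ketamine. In the PFCx, 54 comparisons of 9 transcripts gave 0 calls, 4 being under 0.05 before adjustment, with a lowest adjusted p of 0.365. The share of all transcripts called there, in the same order of drugs, was 0.0248%, 0.158%, 0.109%, 0.358%, 0.00118% and 0.00354%. The rises of Nr4a3 in the NAc and of Nr4a2 and Nr4a3 in the PFCx were thus called for the summed gene and not assigned to a transcript.

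**Figure D3:**
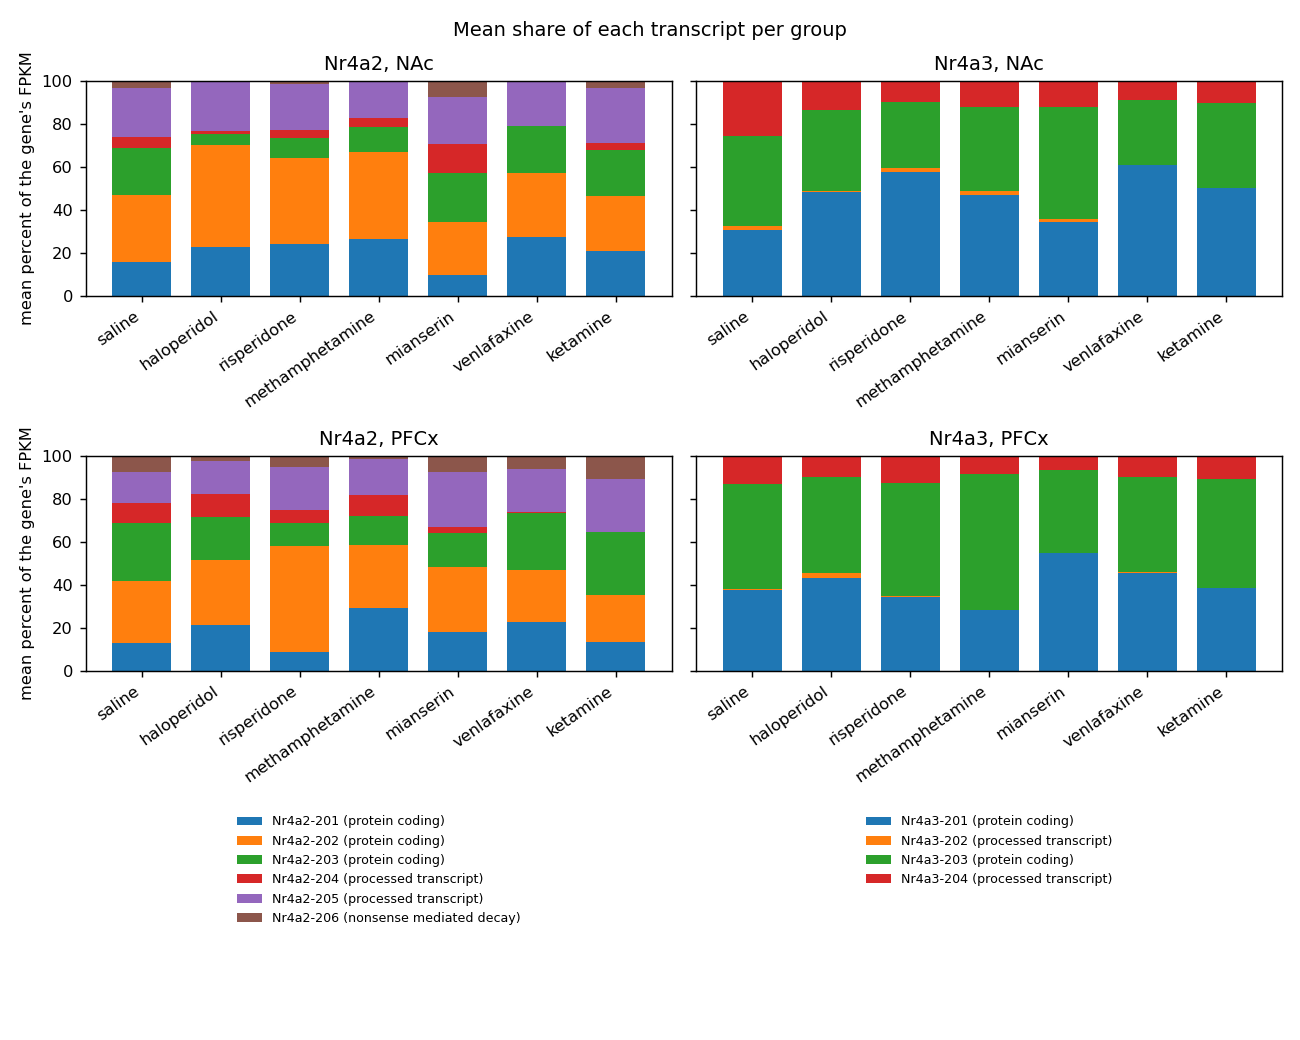
Mean share of each transcript in the summed FPKM of Nr4a2 (left) and Nr4a3 (right) in percent, per group, in the NAc (upper row) and the PFCx (lower row). Colours are transcripts with their annotated type. Nr4a3-204 averages 25.5% in NAc saline and 8.95% after venlafaxine, a difference that did not pass after adjustment.

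The shares of the 7 transcripts that averaged at least 10% were tested with the exact permutation test, in 84 comparisons over both tissues. There were 0 calls, 8 comparisons were under 0.05 before adjustment, and the lowest adjusted p was 0.403. For Nr4a2 in the NAc after haloperidol, Nr4a2-203, which starts at the promoter shown above, averaged 5.14% ± 7.20 (SD, n = 4) against 21.8% ± 13 in saline. Nr4a2-202, with its start inside the gene, averaged 47.7% ± 8.33 against 31% ± 11.3. For Nr4a3 in the NAc, Nr4a3-204 averaged 8.95% after venlafaxine, 9.70% after risperidone, 10% after ketamine, 11.9% after mianserin, 12.3% after methamphetamine and 13.3% after haloperidol, against 25.5% ± 9.78 in saline. All 6 drug means lay below that of saline, and none of these differences passed. The 6 comparisons share the same 8 saline libraries, so their common direction is not 6 separate results. Sums over transcripts with the same start site, an alternative chosen after the data were seen, gave 0 calls of 72 (7 under 0.05 before adjustment, lowest adjusted p = 0.374).

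The genes with the pattern most like each member were ranked by Pearson r of log2(FPKM + 1) over the 32 libraries of a tissue, which share drug groups and sample sets. In the NAc, Nr4a1 was closest to Arc, a synaptic immediate early gene (r = 0.950), then Fosl2 (0.941), Junb (0.927), the kinase Sik1 (0.916) and Egr1 (0.914). Nr4a3 was closest to Fosl2 (0.903), Egr1 (0.901), Nr4a1 (0.882), Egr4 (0.866) and Fosb (0.861). In the PFCx, Nr4a1 was closest to Junb (0.920), the ERK phosphatase Dusp6 (0.917), Arc (0.910), Dusp5 (0.888) and Trib1 (0.875). Nr4a3 was closest there to Arc (0.758), Synpo (0.728), Fmnl1 (0.724), Lipg (0.720) and Egr1 (0.710), and Nr4a2 to Egr1 (0.794), Arc (0.770), Fmnl1 (0.738), Klf10 (0.728) and Sstr2 (0.701). Between members, r in the NAc was 0.882 for Nr4a1 with Nr4a3, 0.659 for Nr4a1 with Nr4a2 and 0.561 for Nr4a2 with Nr4a3. In the PFCx these were 0.636, 0.625 and 0.671.

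Nr4a2 in the NAc had other neighbours. They were Golga7b (r = 0.882), Sema7a (0.860), Cadps (0.859), Slc17a7 (0.841) and Ntng2 (0.835), of which Slc17a7, the vesicular glutamate transporter of cortical projection neurons, is scarce in the striatum itself. Slc17a7 ranged from 45.7 to 64.8 FPKM in the NAc haloperidol libraries, from 26.8 to 58.5 after methamphetamine, from 16.4 to 33.5 after venlafaxine and from 15.4 to 53.6 in saline. The 6 cortical projection neuron markers together ranged from 64.7 to 85.5 FPKM after haloperidol, from 26.9 to 48.6 after venlafaxine and from 25.4 to 71.9 in saline, and none was at 0 throughout. With the Slc17a7 level as a covariate, an alternative chosen after the data were seen, the NAc Nr4a2 differences became 0.07 for haloperidol (adjusted p = 0.869), 0.24 for methamphetamine (0.413), 0.06 for ketamine (0.694), 0.14 for mianserin (0.430), -0.20 for risperidone (0.264) and -0.16 for venlafaxine (0.462). Slc17a7 was picked among the genes closest to Nr4a2 in these same libraries, so that smaller Nr4a2 differences follow in large part from the choice and support nothing. Those of Nr4a1 were 1.5 for haloperidol (8.93e-10), 1.5 for methamphetamine (3.31e-10) and 0.72 for risperidone (0.000118), and those of Nr4a3 0.95 (5.77e-05), 0.85 (0.000135) and 0.67 (0.00112), with their calls kept. The Nr4a1 difference after venlafaxine was -0.49 and no longer passed (0.101). In bulk tissue, fewer cells of a type and less RNA per cell cannot be told apart.

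**Figure D4:**
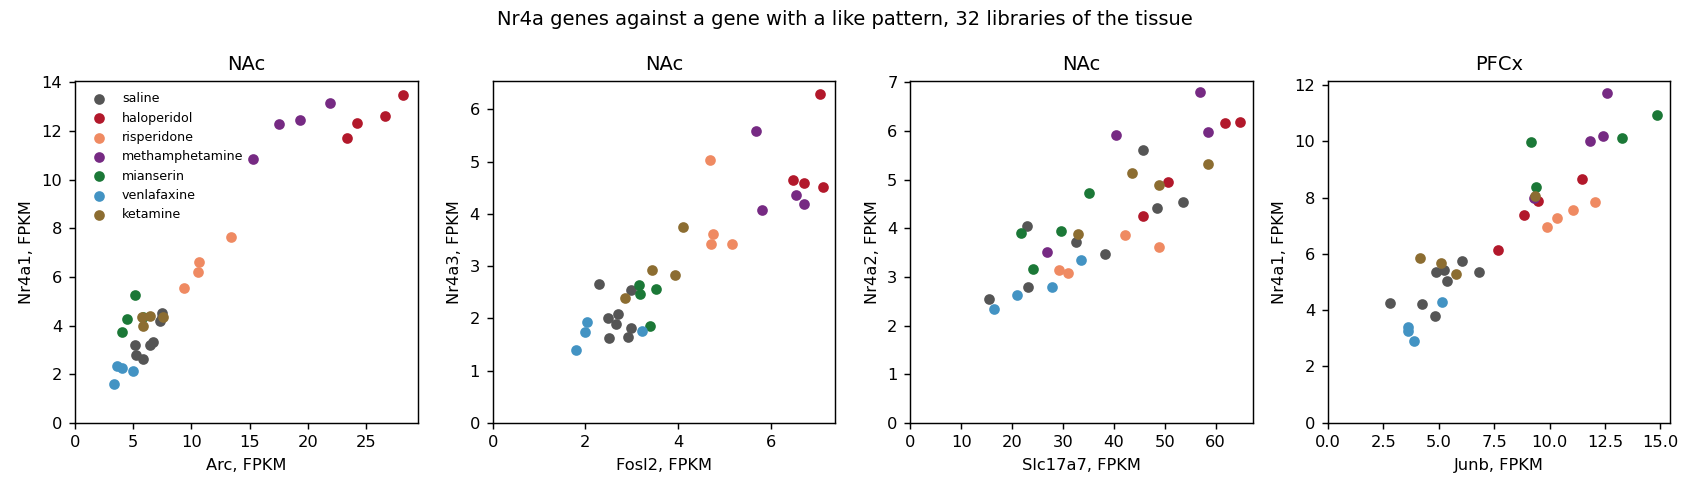
Level of an Nr4a gene (vertical axis, FPKM) against that of a gene with a like pattern (horizontal axis, FPKM) in the 32 libraries of a tissue, coloured by drug. From left to right, Nr4a1 with Arc (r = 0.950) and Nr4a3 with Fosl2 (0.903) in the NAc, Nr4a2 with Slc17a7 (0.841) in the NAc, and Nr4a1 with Junb (0.920) in the PFCx. In the first 2 plots the haloperidol and methamphetamine libraries lie at the upper right.

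The other genes of the pathway were taken from lists drawn up with earlier results of these data known. Of 12 activity-induced transcription factors, 9 were called higher in the NAc after haloperidol, 9 after risperidone, 7 after methamphetamine, 2 after ketamine, 1 after mianserin and 0 after venlafaxine, and 0 were lower. Their median differences were 0.92, 0.58, 0.71, 0.16, 0.17 and -0.19 in that order, while the medians of all genes lay between -0.032 and 0.049. In the PFCx, 5 were called higher after methamphetamine, 3 after haloperidol, 3 after risperidone, 2 after mianserin and 0 after ketamine or venlafaxine. With own saline sets the NAc counts were 9, 7, 7, 1, 1 and 0. Fosb, a Fos family member, rose in the NAc by 1.85 after haloperidol, 1.10 after risperidone and 0.91 after methamphetamine, and Junb, its Jun family partner, by 1.83, 0.98 and 1.20. Fos rose by 1.78 after haloperidol and Egr1 by 0.76. In the PFCx, Junb rose after the same 4 drugs as Nr4a1, by 1.08 after methamphetamine, 1.07 after mianserin, 1.00 after risperidone and 0.80 after haloperidol, the last not with own saline (adjusted p = 0.358).

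Of 18 upstream regulators of Nr4a transcription, among them CREB, its coactivators, the MEF2 factors and class II histone deacetylases, only Sik1 was called. Sik1 is itself a CREB target and restrains the CREB coactivators. It rose in the NAc by 0.80 after haloperidol, 0.64 after methamphetamine, 0.52 after risperidone and 0.36 after mianserin, and in the PFCx by 0.68 after mianserin, 0.65 after methamphetamine and 0.49 after risperidone. Each of these passed with own saline sets too. Of 14 partners and coregulators of the Nr4a proteins, 1 was called higher in the NAc after haloperidol against all saline and not with own saline. The RNA-binding Sfpq was lower in the NAc after mianserin, with a log2 difference of -0.30 (adjusted p = 0.0169, and 0.0107 with own saline). None of the 14 was called in the PFCx.

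Of 8 dopamine genes that Nr4a2 is known to regulate in the midbrain, 0 were called in either tissue. Of the 36 other nuclear receptors tested in the NAc, Pparg (0.55, adjusted p = 0.0269) and Rorb (0.26, 0.0256) were called higher after ketamine, and neither with own saline (0.138 and 0.0812). None of the 37 tested in the PFCx was called against all saline for any drug. Of all genes, 0.0888% to 1.5% were called per drug against all saline in the NAc and 0.00543% to 0.681% in the PFCx. At such shares few or no calls are likely in lists this short. The low counts of these lists, and of the regulators and partners above, therefore say little about whether their genes responded.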

How the data were processed

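The data are 64 RNA-seq libraries of mouse NAc and PFCx, with 4 for each of the 6 drugs and 8 for saline in either tissue. The authors depleted ribosomal RNA, prepared single-end Ion Torrent libraries, aligned the reads with TopHat2 2.0.1 and Tmap, and estimated transcript levels with Cufflinks 2.2.1 on mm10 with Ensembl annotation, versions being those of the submitters' processing notes and the methods. The deposited tables give, per library, the FPKM of each annotated transcript with confidence bounds, and the read coverage that the authors' Cufflinks run estimated per base and did not scale to depth. Depth was estimated here from the ratio of coverage to FPKM, as its median over transcripts of 2000 or more bases and 5 or more FPKM, and was 1.52 to 3.26 gigabases. The tables hold no counts, so no counting intervals were computed. The deposited bounds of Nr4a1 spanned 7.64% to 21.1% of its FPKM to either side, with a median of 12.0%.

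FPKM were summed per gene. Genes with a mean of at least 0.1 FPKM in a tissue were tested with limma 3.58.1 in R 4.3.3 on log2(FPKM + 1), so that differences of low genes are understated, with Benjamini-Hochberg adjustment over all genes (29273 for the NAc, 36846 for the PFCx and 37034 for the model of both tissues) and a threshold of 0.05. All 3 genes passed the filter in both tissues, as did 1 of 1, 5 of 6 and 3 of 4 transcripts of Nr4a1, Nr4a2 and Nr4a3 in the NAc, and 1, 6 and 3 of them passed in the PFCx. All 32 libraries of a tissue shared 1 estimate of the spread. Shares and ratios used two-sided exact permutation tests with scipy 1.17.1, numpy 2.4.6 and pandas 2.3.3 in Python 3.11.15, shares for transcripts averaging at least 10% of their gene. Tested on simulated data with 200 genes changed by 1 on the log2 scale, the haloperidol comparison called 194 of the 200 and 20 of the other 28728 genes in the NAc, and 188 and 6 of the other 36149 in the PFCx. In the NAc, but not in the PFCx, these false calls were a larger share of all calls than the threshold of 0.05 aims for. The simulated libraries had independent noise and no difference between sample sets. These counts therefore say nothing of false calls that arise from the sample sets.

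Groups came from the labels. Which drugs share a sample set with which saline set was read from the number of transcripts above 0 in the NAc. The labels do not say whether libraries came from separate mice, so p-values measure the spread between these libraries. Replicate numbers were not used as pairs in the main fits, and whether they pair the samples is not settled. Same-numbered libraries deviated together weakly on average. In the NAc the mean r was 0.0981, against -0.0327 for different numbers, and 61 of 112 same-numbered pairs exceeded 0.1 (range -0.27 to 0.42). In the PFCx it was 0.105 against -0.0313, and 47 of 112 did (range -0.38 to 0.66). The members and gene lists were chosen with earlier results of these data known. Named genes were the members, up to 4 genes per list and tissue called in the most comparisons, and the 5 genes with the highest r per member and tissue. A few results that this rule selects are not reported here. Alternatives were other pseudocounts, filters, variance models, saline sets, scalings and transcripts, a replicate block and leaving out each library, and 4 were added after the data were seen (sums per start site for levels and for shares, the Slc17a7 covariate, and a scaling on genes above 0 in every library). Transcript names and types came from GENCODE and promoters from RefSeq, in which all 3 genes were matched.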

Additional observations from a re-analysis of the deposited data

Results flagged for a closer look

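In the 48 groups of 4 libraries formed by the 3 genes, the 2 tissues and the 8 groups of a tissue, 3 had a library far from the others by Dixon's test at the 95% level, which chance flags in about 1 of 20 groups. Nr4a1 in NAc ketamine replicate 2 had 3.97 FPKM against 4.34 to 4.40 in the other 3, a gap of 0.862 of the whole range. Nr4a3 in NAc haloperidol replicate 2 had 6.30 FPKM against 4.51 to 4.65 (0.924 of the range), and in NAc risperidone replicate 2 it had 5.03 against 3.42 to 3.62 (0.876 of the range). Without any single library of the comparison, the Nr4a3 difference stayed between 0.89 and 1.03 after haloperidol and between 0.57 and 0.72 after risperidone, and it passed each time.

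Of 18 differences of a drug effect between the tissues, 2 passed the limma test. The response to haloperidol was larger in the NAc than in the PFCx by 1.06 for Nr4a1 (adjusted p = 2.65e-05) and by 0.78 for Nr4a3 (adjusted p = 0.00534). For haloperidol, 0.0405% of all genes were called. With own saline sets Nr4a1 passed (0.82, adjusted p = 0.0419) and Nr4a3 did not (0.74, 0.132). Leaving out 1 library at a time, Nr4a1 kept its call and Nr4a3 lost it in 1 of 24 refits.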

How the results depend on the processing

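The 36 drug comparisons kept their direction and their side of the threshold with a mean FPKM of at least 1, a mean-variance trend, an unmoderated test, transcripts of successful estimate only, transcripts seen in both NAc saline sets and, added later, rescaling to the 75th percentile of genes above 0 in every library. Without the filter, Nr4a3 after ketamine in the NAc passed (0.39, adjusted p = 0.0474). With a pseudocount of 0.1, Nr4a1 after haloperidol (0.61, 0.0627) and Nr4a3 after methamphetamine (0.52, 0.0696) in the PFCx no longer passed.

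Fitted with a replicate block, the pairing by number moved 1 of the 36 calls, Nr4a3 after ketamine in the NAc (0.39, adjusted p = 0.0337), and gave 1 called transcript comparison in the NAc in place of 0. What the numbers stand for is not stated.

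The choice of saline changed more. Against the own saline set, with all libraries in the fit, in the NAc Nr4a1 passed after mianserin (0.44) and ketamine (0.41) and not after venlafaxine (-0.38), and in the PFCx Nr4a1 after haloperidol (0.61) and Nr4a3 after methamphetamine (0.48) no longer passed and Nr4a3 after mianserin turned to -0.019. The NAc count of lower calls became 0, the PFCx F tests of Nr4a2 and Nr4a3 had adjusted p of 0.0799 and 0.129, that of the tissue difference of Nr4a3 0.108, the called tissue differences numbered 1, and 0 ratios between members were called. With 4 against 4 libraries the smallest exact p is 0.0286 and the lowest adjusted p was 0.147, so this count says nothing of their size. The Nr4a1 to Nr4a2 ratio after haloperidol moved by 1.35 against 1.34. The Nr4a1 tissue differences turned to -0.027 for risperidone, 0.10 for venlafaxine and 0.19 for ketamine.

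With saline set II left out of the fit, Nr4a2 after venlafaxine (-0.54) and Nr4a3 after ketamine (0.39) in the NAc passed, Nr4a2 after mianserin turned to -0.15, and in the PFCx Nr4a1 after haloperidol (0.61) and risperidone (0.60) and Nr4a3 after methamphetamine (0.48) no longer passed. The NAc then had 2 lower calls and the PFCx 3 higher ones, 0 ratios were called, the tissue F test of Nr4a2 passed (0.0211), the saline difference of Nr4a1 between tissues was -0.14, and the tissue differences of Nr4a1 for risperidone (-0.027) and Nr4a2 for ketamine (-0.018) changed sign. With set I left out of the fit, in the NAc Nr4a1 after mianserin (0.44) and ketamine (0.41) and Nr4a2 after haloperidol (0.59) and methamphetamine (0.60) passed, Nr4a1 after venlafaxine did not (-0.38), and Nr4a2 after risperidone turned to 0.063. Nr4a3 after mianserin in the PFCx was -0.019. The NAc had 10 higher and 0 lower calls, 2 transcript comparisons were called there, 0 ratios were called, and the tissue differences of Nr4a1 for venlafaxine (0.10) and ketamine (0.19) and of Nr4a2 for haloperidol (0.19) changed sign.

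Rescaling each library to the 75th percentile of its genes above 0 left the NAc median of all genes at -0.24 after haloperidol, -0.23 after risperidone, -0.23 after methamphetamine, 0.25 after mianserin, 0.27 after venlafaxine and 0.24 after ketamine, where it had been -0.031, -0.032, -0.027, 0.025, 0.023 and 0.049. Nr4a1 then had 0.29 after risperidone, 0.67 after mianserin, -0.13 after venlafaxine and 0.59 after ketamine, which are 0.52, 0.42, -0.40 and 0.36 relative to that median. Nr4a2 had -0.033 after haloperidol, 0.44 after mianserin, 0.082 after venlafaxine and 0.64 after ketamine (0.21, 0.19, -0.18 and 0.40 relative to it). Nr4a3 had 0.24 after risperidone, 0.41 after methamphetamine, 0.48 after mianserin, 0.18 after venlafaxine and 0.67 after ketamine (0.47, 0.64, 0.23, -0.09 and 0.43). Of these, risperidone (Nr4a1 and Nr4a3), methamphetamine (Nr4a3) and venlafaxine (Nr4a1) lost their calls, every mianserin and ketamine value named gained one, and the haloperidol and venlafaxine values of Nr4a2 and the venlafaxine value of Nr4a3 changed sign without passing. The cause was not tested. The NAc had 0 lower calls, 1 tissue difference was called, the tissue F test of Nr4a2 had an adjusted p of 1.09e-05, and the tissue differences of Nr4a1 for risperidone (-0.22), venlafaxine (0.22) and ketamine (0.30), of Nr4a2 for mianserin (0.10) and of Nr4a3 for venlafaxine (0.23) changed sign.

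With the Slc17a7 level as a covariate, Nr4a1 after venlafaxine was -0.49 and the NAc had 0 lower calls. With a mean FPKM of at least 1, 1 NAc transcript comparison was called. With a pseudocount of 1, 11 ratios were called.

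Leaving out 1 library at a time, 15 of 432 refits lost a call, 1 gained one and 6 changed the sign of a difference that never passed, while the rest kept both. The differences that changed ranged from -0.59 to -0.47 for Nr4a1 after venlafaxine in the NAc, and in the PFCx from 0.47 to 0.61 after haloperidol and 0.48 to 0.55 after risperidone. For Nr4a2 they were -0.045 to 0.11 after mianserin in the NAc, and 0.63 to 0.72 after methamphetamine and -0.090 to 0.12 after venlafaxine in the PFCx. For Nr4a3 they were 0.30 to 0.46 after ketamine in the NAc, and 0.39 to 0.47 after methamphetamine and -0.063 to 0.088 after mianserin in the PFCx. The NAc counts were 6 to 7 higher and 0 to 1 lower, the PFCx counts 4 to 6 higher, and the PFCx F test of Nr4a3 ran from 0.00703 to 0.0613, passing without each library but methamphetamine replicate 1 (0.0613) or 2 (0.0524). The called tissue differences numbered 1 to 3 and the called NAc transcript comparisons 0 to 1. The tissue differences ranged from -0.11 to 0.063 for Nr4a1 after ketamine, from -0.10 to 0.091 for Nr4a2 after haloperidol and from -0.69 to -0.56 for Nr4a1 after mianserin. That of Nr4a3 after haloperidol ranged from 0.69 to 0.83 and lost its call in 1 of 24 refits.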

Other observations

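Lists of 3 to 8 marker genes were read for cell types of the tissue. Against all saline, 1 of 8 striatal projection neuron markers was lower in the NAc after ketamine (Adora2a, -0.42, limma adjusted p = 0.0145), 1 of 4 oligodendrocyte markers was higher there after the same drug, and 1 of 6 cortical projection neuron markers was higher in the PFCx after mianserin (Neurod2, 0.40, adjusted p = 0.0107). No marker of astrocytes, microglia, endothelial cells, choroid plexus or of the claustrum and layer 6b, where Nr4a2 is a known marker, was called against all saline for any drug in either tissue. Of all genes, 0.0888% to 1.5% were called per drug in the NAc and 0.00543% to 0.681% in the PFCx, so few or no calls are likely in lists this short. The 6 markers of the claustrum and layer 6b summed to 22.7 to 36.8 FPKM in NAc saline libraries and to 28.7 to 35.3 after haloperidol. The 3 choroid plexus markers summed to 0.581 to 1.55 FPKM in NAc saline libraries.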
